A study of Mus musculus with 4 samples.

Results

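The collagen genes of the mouse were described across 4 bones, the maxilla and mandible of the jaw and the ilium and femur of the trunk and limb. Members were the array probes, control probes aside, whose gene name in the scanner files reads Col, a number, the letter a and a number. This rule found 40 genes on 81 probes in 99 spots, of 27742 genes and 41174 probes with a value. Grouped by the kind of assembly they form, 8 encode fibrillar chains, 7 encode the chains typical of cartilage, 10 belong to basement membranes and 15 are others. The 10 take in Col7a1, Col15a1, Col17a1 and Col18a1, placed there as collagens of the basement membrane zone, beside the type IV chains. All 40 were tested, that is, their signal stood well above background on 2 or more of the 4 arrays, as it did for 20709 genes. For 36 it did so on all 4. A well-above-background mark is the scanner program's own call for a spot.

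Collagens are secreted proteins whose chains wind into helices and then assemble outside the cell. Fibrillar chains form the rope-like fibres that carry mineral in bone and dentin, with type I as the main collagen of both. Cartilage uses type II fibrils with types IX and XI on and in them, and chondrocytes that enlarge before bone replaces them make type X. Basement membrane collagens form or anchor the sheet on which epithelia and endothelia rest, and the remaining chains coat fibrils, build microfibrils or span cell membranes.

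The RNA came from bones taken directly from male C57BL/6 mice aged 35 days, with no treatment named in the labels. Each of the 4 bones had 1 array, and the sources used here do not state the number of animals behind it. The jaw bones were set against the trunk and limb bones because the study's title draws that line. Between 72.8% and 75.5% of the 43379 spots on an array were well above background and 0 were saturated. Precision is limited by the number of arrays. Values are log2 of the processed signal over its own array's 75th percentile, so 0 is the level of that percentile. A probe's level depends on its own sequence, so levels are compared between bones and not between genes. In whole-tissue RNA, fewer cells of a type and less RNA per cell cannot be told apart.

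Marker genes chosen for bone and for its neighbours checked the labels. All 9 osteoblast and osteocyte markers with a value were well above background in every bone. The summed signal of the 7 tooth matrix markers was 6.59 in the maxilla and 8.03 in the mandible, against -1.40 in the ilium and -2.47 in the femur. Stratified epithelium markers, keratins of surface and oral epithelium among them, summed to 5.90 in the maxilla and 6.57 in the mandible, against -1.85 in the ilium and -1.88 in the femur. Erythroid markers ran the other way, with sums of 4.53 and 5.12 in the maxilla and mandible, against 7.49 and 7.65 in the ilium and femur.

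The promoter sequences below are those of the members on which the results turn: basement membrane chains that were called between classes (Col17a1, Col7a1, Col4a5), Col4a6, whose probes disagreed, and cartilage chains with large differences between bones of a class (Col9a2, Col10a1). Each is the 250 bases before the gene's start, read 5′ to 3′ on the gene's strand from RefSeq on build GRCm38.p6. Capitals mark matches on either strand to ACAAAG (a core of SOX factor sites), GGGCGG (the GC box) and TATAAA (the TATA box), and no matches overlapped one another in these windows.
Col17a1, chr19:47692043-47692292, minus strand: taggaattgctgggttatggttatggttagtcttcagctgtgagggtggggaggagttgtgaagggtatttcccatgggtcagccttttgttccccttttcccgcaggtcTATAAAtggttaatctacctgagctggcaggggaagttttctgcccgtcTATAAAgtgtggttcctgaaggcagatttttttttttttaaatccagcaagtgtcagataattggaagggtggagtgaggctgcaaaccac
Col7a1, chr9:108953336-108953585, plus strand: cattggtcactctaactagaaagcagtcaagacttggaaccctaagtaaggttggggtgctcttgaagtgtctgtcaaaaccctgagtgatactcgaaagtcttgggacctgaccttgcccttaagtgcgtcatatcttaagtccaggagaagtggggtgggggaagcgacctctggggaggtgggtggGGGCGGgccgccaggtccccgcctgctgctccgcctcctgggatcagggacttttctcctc
Col4a5, chrX:141475169-141475418, plus strand: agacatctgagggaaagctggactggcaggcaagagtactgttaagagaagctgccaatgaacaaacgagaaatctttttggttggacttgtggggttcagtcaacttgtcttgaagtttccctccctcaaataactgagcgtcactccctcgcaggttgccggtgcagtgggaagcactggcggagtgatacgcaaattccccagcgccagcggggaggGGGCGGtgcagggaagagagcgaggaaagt
Col4a6, chrX:141474077-141474326, minus strand: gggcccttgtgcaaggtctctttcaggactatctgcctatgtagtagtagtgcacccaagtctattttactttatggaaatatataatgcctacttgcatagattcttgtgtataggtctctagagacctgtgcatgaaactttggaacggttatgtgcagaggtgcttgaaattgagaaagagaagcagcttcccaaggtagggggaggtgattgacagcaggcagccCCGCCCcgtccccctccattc
Col9a2, chr4:121039316-121039565, plus strand: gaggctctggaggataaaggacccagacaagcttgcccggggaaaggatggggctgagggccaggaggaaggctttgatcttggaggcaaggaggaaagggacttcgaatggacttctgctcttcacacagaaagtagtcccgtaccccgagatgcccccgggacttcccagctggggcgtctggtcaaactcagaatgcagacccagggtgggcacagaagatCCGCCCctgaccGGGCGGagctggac
Col10a1, chr10:34389731-34389980, plus strand: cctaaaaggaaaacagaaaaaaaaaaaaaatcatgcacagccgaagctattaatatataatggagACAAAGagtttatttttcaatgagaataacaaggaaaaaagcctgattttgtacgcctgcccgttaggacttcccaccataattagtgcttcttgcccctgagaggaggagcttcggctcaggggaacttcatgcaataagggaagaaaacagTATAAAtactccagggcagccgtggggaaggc

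Of 32851 such windows, 16.5% held the SOX core, 32.7% the GC box and 12.4% the TATA box. Among the 35 windows of the 32 collagen genes that had one, 4 held the SOX core, 19 the GC box and 5 the TATA box. Within these windows Col17a1 had a pair of TATA boxes, Col7a1, Col4a5 and Col4a6 had a GC box each, Col9a2 had a pair of GC boxes, and Col10a1 had 1 SOX core match and 1 TATA box. A match describes letters and does not show that a factor binds. Col4a5 and Col4a6 run away from each other on the X chromosome, with starts 1343 bases apart. Col4a1 and Col4a2, the chains of the most widespread type IV network, do the same on chromosome 8, with starts 21 bases apart.

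Set class against class, collagens sat mostly higher in the jaw bones. Of the 5 that passed the test, 3 were in the basement membrane group, and the type I chains of bone were not among the 5. Col4a5 alone among those 3 is a type IV chain. Col17a1, Col4a5, Col7a1, Col23a1 and Col8a2 were called higher by limma, with adjusted p from 0.0326 to 0.0494, and 0 collagen genes were called lower. The 5 calls are 12.5% of the collagen genes, where 4.52% of all genes tested were called higher and 7.22% lower. At an unadjusted p under 0.05 there were 11 collagen genes, all with the higher mean in jaw bones. That was 27.5% of the members, where 34.3% of all genes passed in either direction. The fit took its error from bones of a class, not from animals, and calls rested on both trunk and limb bones. Without the ilium array 0 collagen genes and 0 genes in all were called, with 3566 genes at an unadjusted p under 0.05. Without the femur array the counts were again 0, with 2638 genes at an unadjusted p under 0.05. Leaving out the maxilla gave 10 collagen genes called higher (25%), where 14.4% of all genes were. Leaving out the mandible gave 8 (20%), where 19.6% of all genes were, a share near the background. Col4a5 entered the test only through the jaw arrays, where it was high, so its call is no support for the direction. Among the genes well above background on all 4 arrays, 5 of 36 collagen genes (13.9%) were called higher, with Col16a1 in place of Col4a5, and 0 lower, where 5.37% of all such genes were called higher and 8.88% lower.

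The jaw minus trunk and limb difference was above 0 for 35 of 40 collagen genes (87.5%), where 48.8% of all genes were above 0. Its median was 0.56 over the collagen genes and -0.03 over all genes. Col5a3, Col2a1, Col9a1, Col10a1 and Col8a1 were the members below 0. For 21 collagen genes (52.5%) both jaw bones were above both other bones, where 31.9% of all genes were so placed. The reverse order held for Col5a3 alone, where 36.2% of all genes had it, and the groups overlapped for 18 members. By a rule of size without a test, a gap of at least 1 between the groups, 7 collagen genes (17.5%) were higher in jaw bones, where 9.34% of all genes were. These were the called genes with Col18a1 and Col16a1, and 0 members were lower by that rule, where 9.8% of all genes were. Col4a5, which entered the test only through the jaw arrays, is among the 35, the 21 and the 7, and adds no support to them. Centring arrays on their median in place of the 75th percentile moved the all-gene median to -0.28, and 32 collagen differences were then above 0. Over all genes that centring called 609 higher and 1651 lower, so 26.9% of calls were higher, against 936 higher and 1495 lower (38.5%) under the 75th percentile. Under either scaling 35 of 40 collagen genes lay above the median of all genes. Osteoblast and osteocyte markers moved the same way, with 9 of 9 differences above 0 and 0 called, and summed signals of 8.12 and 8.40 in the maxilla and mandible, against 7.82 in the ilium and 7.51 in the femur. The erythroid sums given above moved the other way. The part of either in the collagen shift was not tested.

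**Figure D1:**
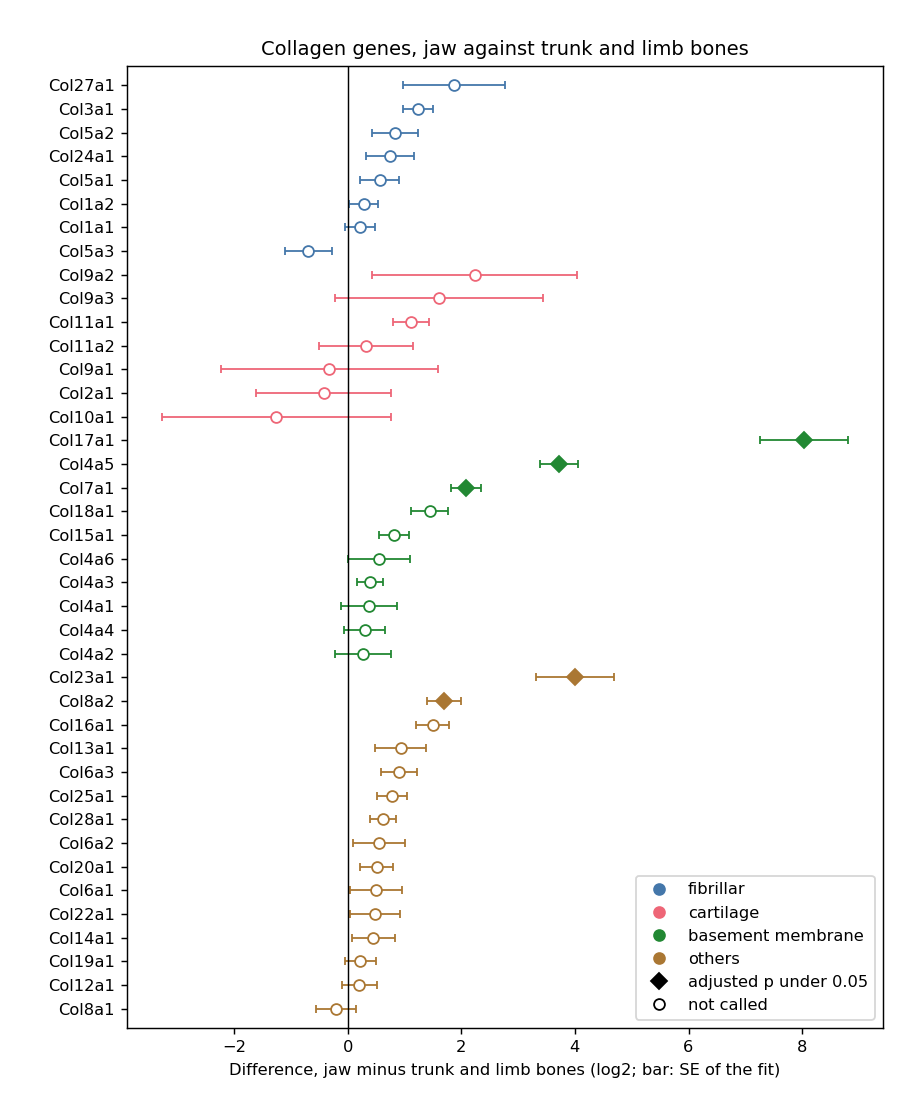
Difference in log2 signal, jaw minus trunk and limb bones, for the 40 collagen genes (horizontal axis), ordered by size within each class (colour), with the standard error of the limma fit as bars. Filled diamonds are the 5 genes with an adjusted p under 0.05, from Col8a2 at 1.69 to Col17a1 at 8.03. The widest bars are those of Col2a1, Col9a1, Col9a2, Col9a3 and Col10a1, all cartilage chains.

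The main fibrillar chains of bone were not called between the classes. The median difference of the 8 genes was 0.65, and 0 were called. For 6 of them (75%) both jaw bones were above both other bones, where 31.9% of all genes were so placed. Among these 6 the gap between the groups ran from 0.004 (Col1a2) to 0.95 (Col3a1), with 0.017 for Col24a1 and 0.043 for Col5a1. Col1a1, the main chain of type I collagen, had a log2 signal of 7.10 in the maxilla and 6.63 in the mandible, against 6.71 in the ilium and 6.57 in the femur. Its partner in the type I helix, Col1a2, had 8.06 and 7.59 in the maxilla and mandible, against 7.59 in the ilium and 7.50 in the femur. At these brightest probes the maxilla stood highest and the other bones lay close together. The other Col1a1 probes put the mandible highest, with 5.64 in the maxilla and 6.41 in the mandible, against 6.35 in the ilium and 5.59 in the femur, at the brighter of them. At the second Col1a2 probe the maxilla and mandible were level, at -2.09 and -2.07. The differences were 0.22 ± 0.26 for Col1a1 (adjusted p = 0.586) and 0.28 ± 0.26 for Col1a2 (adjusted p = 0.489), each with the standard error of the limma fit. Under median centring the Col1a1 difference was -0.03. The bright Col1a1 probe was printed in 10 spots, and 3 of them were left out on the ilium array as outliers.

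Col3a1, which mixes with type I fibrils in soft and vascular tissue, separated the classes more clearly. Its signal was 6.77 in the maxilla and 6.28 in the mandible, against 5.33 in the ilium and 5.24 in the femur. The groups did not overlap, and the difference of 1.24 ± 0.26, or 2.36-fold, missed the threshold (adjusted p = 0.0643, limma). Its 3 probes gave differences of 1.24 to 1.66, and the second of them passed when every probe was tested as its own feature (adjusted p = 0.0472). Col5a1, a chain that starts and limits type I fibrils, had 3.68 and 4.03 in the maxilla and mandible, against 3.64 in the ilium and 2.94 in the femur. Here the ilium lay just under the maxilla and the femur was lowest (0.56 ± 0.34, adjusted p = 0.320). Col27a1, a fibrillar chain known from cartilage, was highest in the mandible, with -0.40 in the maxilla and 1.76 in the mandible, against -0.68 in the ilium and -1.70 in the femur. Its difference of 1.87 ± 0.89 did not pass (adjusted p = 0.232). The fibrillar chain that ran the other way was Col5a3, with 0.04 and 0.98 in the maxilla and mandible, against 1.40 in the ilium and 1.00 in the femur. Its difference was -0.69 ± 0.42 (adjusted p = 0.320), and without the mandible array it was called lower, at -1.16, in a fit that called 20.1% of all genes lower and 1 of 40 collagen genes (2.5%). The remaining fibrillar members, Col5a2 and Col24a1, had differences of 0.83 and 0.74.

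Among the cartilage chains the widest differences lay between bones of a class. Between the classes 0 of the 7 were called by limma, 1 passed an unadjusted p under 0.05, and the groups overlapped for 6. Their median difference was 0.33, with a range from -1.26 to 2.23. Col2a1, the fibril of hyaline cartilage, had 2.26 in the maxilla and 2.58 in the mandible, against 4.45 in the ilium and 1.24 in the femur. The jaw bones lay between the other bones, and the difference was -0.42 ± 1.19 (adjusted p = 0.826). Without the ilium array it was 1.18. The member whose groups did not overlap was Col11a1, which sits in the core of type II fibrils and is also made outside cartilage. It had 4.78 and 5.46 in the maxilla and mandible, against 4.11 in the ilium and 3.89 in the femur (1.12 ± 0.32, adjusted p = 0.106). Its 3 probes gave differences of 0.15 to 1.49.

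Between the ilium and femur, cartilage chains made up every large collagen difference at the brightest probe of each gene. With 1 array per bone there is no test, and differences were counted at 4-fold or more with the brighter bone well above background. By that rule 5 collagen genes were higher in the ilium, all cartilage chains, where 0.522% of all genes were. Higher in the femur were 0 members, where 0.111% of all genes were. The second, dimmer Col17a1 probe did favour the femur, at -2.99, with the ilium not well above background. Its ilium minus femur difference was -4.44 in log2. Col2a1 was 9.27-fold higher in the ilium. Col9a1, Col9a2 and Col9a3 encode the chains of type IX collagen, which coats type II fibrils. Col9a1 had -4.0 in the maxilla and -2.16 in the mandible, with -0.33 in the ilium and -5.19 in the femur, and the ilium was 29.0-fold above the femur. Col9a2 followed with -0.76, 2.59, 0.49 and -3.13 in the same order of bones, a 12.2-fold higher signal in the ilium than in the femur. Col9a3 had -2.53, 0.81, -0.61 and -4.32, and the ilium was 13.1-fold above the femur. All type IX chains were lowest in the femur, while Col9a1 was highest in the ilium and the other chains in the mandible.

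Col10a1, made by chondrocytes as they enlarge in growth plates, was well above background in the maxilla and the ilium alone. Its log2 signal was -4.16 in the maxilla and -1.96 in the ilium, and the mandible and femur were not well above background. The ilium was at least 23.7-fold above the femur and the maxilla at least 4.72-fold above the mandible. These bounds set the brighter bone against the higher of the dimmer probe's own signal and the lowest signal well above background on its array. The type XI chains were closer, Col11a1 and Col11a2 having ilium minus femur differences of 0.22 and 0.67. The median ilium minus femur difference was 3.61 over the cartilage chains and 0.50 over all collagen genes, against -0.05 over all genes, whose median absolute difference was 0.192.

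Between the ilium and femur, other cartilage genes moved with these chains. Of 10 cartilage markers tested, 9 were at least 4-fold higher in the ilium than in the femur, with a median difference of 3.48. Their summed signal was 2.95 in the maxilla and 3.16 in the mandible, against 4.96 in the ilium and 2.26 in the femur. Acan, the large proteoglycan of cartilage, had -0.27 and -0.39 in the maxilla and mandible, against 0.93 in the ilium and -1.21 in the femur. Matn1 and Matn3, matrix proteins of cartilage, were marked well above background in the ilium alone. For Matn3 the ilium signal was -2.94. For Matn1 it was -5.58, no higher than the -5.56 of the maxilla, so that gene does not set the ilium apart from the maxilla. Of the markers tested, the exception was Sox9, the factor that drives chondrocyte genes. It had 1.62 and 2.08 in the maxilla and mandible, against -1.38 in the ilium and -2.68 in the femur. It was called higher in jaw bones (3.88 ± 0.54, adjusted p = 0.0368, limma). The part that the amount of cartilage in a sample plays in the collagen differences was not tested.

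**Figure D2:**
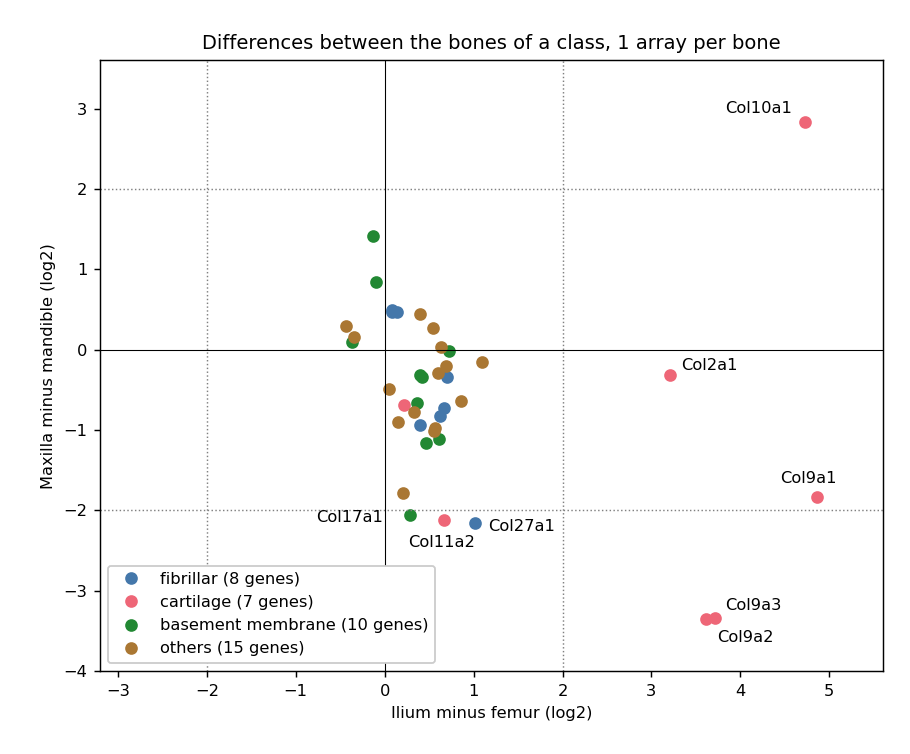
Ilium minus femur difference (horizontal axis, log2) against maxilla minus mandible difference (vertical axis, log2) for the 40 collagen genes, coloured by class, with dotted lines at a 4-fold difference and 1 array per bone. Col2a1, Col9a1, Col9a2, Col9a3 and Col10a1 lie beyond the line on the ilium side, from 3.21 to 4.86, and the other members lie between -0.43 (Col19a1) and 1.10 (Col13a1) on that axis. Col10a1 alone is above the upper line, and Col9a2, Col9a3, Col11a2, Col17a1 and Col27a1 are below the lower one.

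A shallower tilt between the ilium and femur ran through the other classes. The ilium was above the femur for 35 of 40 collagen genes, where 42.3% of all genes had that order. All 8 fibrillar and all 7 cartilage chains were among them, with 7 of 10 basement membrane chains and 13 of 15 others. The femur was the lowest bone for 30 members (75%), where 25.8% of all genes were lowest there. Under median centring the femur was lowest for 23 members. Osteoblast and osteocyte markers had the same order, with the ilium above the femur for 9 of 9, and so did endothelium markers for 7 of 7. Erythroid markers had it for 0 of 6, and the part of these cells in the collagen order was not tested.

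Within the jaw, the mandible was the brighter bone for 28 of 40 collagen genes, while the maxilla was the brighter for 45.6% of all genes. The mandible was the brightest of all 4 bones for 25 (62.5%), where 27.0% of all genes were brightest there. The 4-fold rule placed 5 members higher in the mandible, where 2.18% of all genes were, and 1 member, Col10a1, higher in the maxilla, where 6.29% of all genes were. Col9a2 and Col9a3 were 10.2-fold and 10.1-fold higher in the mandible than in the maxilla. Col27a1 was 4.48-fold higher in the mandible. Col11a2, the second chain of type XI collagen, had 2.67 in the maxilla and 4.79 in the mandible, against 3.73 in the ilium and 3.07 in the femur, and was 4.35-fold higher in the mandible than in the maxilla. The median maxilla minus mandible difference was -1.84 over the cartilage chains, -0.42 over all collagen genes and -0.07 over all genes. Over the 10 cartilage markers tested it was -0.17, with 1 marker at least 4-fold higher in the mandible and 1 in the maxilla. Skeletal muscle markers also differed between the jaw bones, with 6 of 7 at least 4-fold higher in the mandible and summed signals of 6.94 in the maxilla and 9.23 in the mandible. Tendon and ligament markers summed to 4.22 in the maxilla and 5.37 in the mandible, and the part of either tissue in the collagen differences was not tested.

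**Figure D3:**
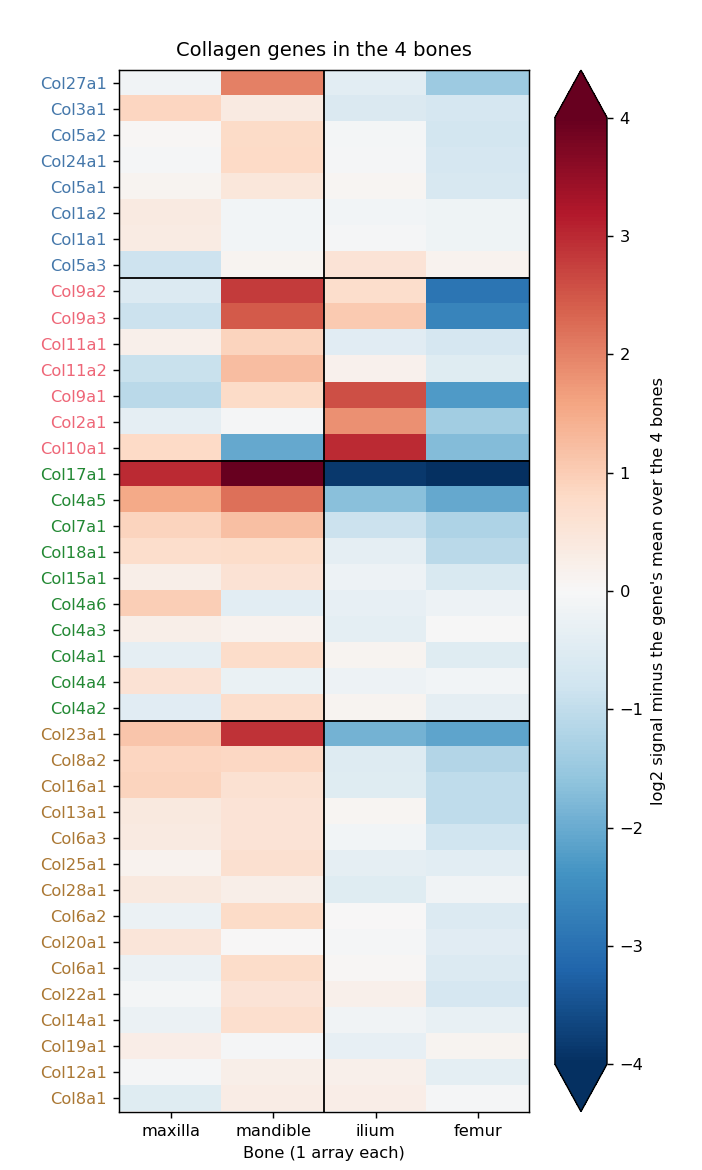
Log2 signal of each collagen gene in the 4 bones minus the gene's mean over the bones (colour scale, 1 array per bone), with genes grouped from top to bottom as fibrillar, cartilage, basement membrane and others. The femur column is the lowest for 30 of 40 genes and the mandible column the highest for 25, while Col17a1, Col4a5 and Col23a1 divide the jaw bones from the other bones.

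The widest class difference of any collagen was that of Col17a1, in the basement membrane group. All 10 differences in that group were above 0, where 48.8% of all genes were, and their median was 0.68. Called higher were 3 genes (30%), where 4.52% of all genes were, with Col4a5 among the 3 only through the jaw arrays. Col17a1 encodes the transmembrane collagen of hemidesmosomes, which pins basal epithelial cells to their basement membrane. Its log2 signal was 0.96 in the maxilla and 3.02 in the mandible, against -5.89 in the ilium and -6.18 in the femur. Both jaw bones were far above both other bones, the mandible being the brighter by 4.17-fold. The difference was 8.03 ± 0.78, or 262-fold (adjusted p = 0.0326, limma). This probe lies at chr19:47699715-47699774 on build mm8. Its ilium and femur signals lay close to the lowest well above background on those arrays, -6.46 and -6.53, so the fold depends on dim values. Under normexp background correction the difference was 5.84. With the mean of all probes it was 6.10 and was not called (adjusted p = 0.0515, limma). A second Col17a1 probe, at chr19:47700027-47700086, had -2.07 and -0.02 in the maxilla and mandible, against -2.99 in the femur, with the ilium not well above background. At that probe the femur came close to the maxilla, and the difference of 4.17 ± 1.77 was not called when every probe was tested (adjusted p = 0.190).

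Col7a1 encodes the anchoring fibrils that tie the epithelial basement membrane to the connective tissue beneath it. It had 2.32 in the maxilla and 2.64 in the mandible, against 0.59 in the ilium and 0.19 in the femur. The groups did not overlap, and the difference was 2.09 ± 0.26, or 4.26-fold (adjusted p = 0.0343, limma). Col4a5 encodes a type IV chain found in basement membranes of kidney and skin. Its probe, at chrX:136934820-136934879 on build mm8, read -5.05 in the maxilla and -4.39 in the mandible while neither the ilium nor the femur was well above background. The jaw bones were at least 3.43-fold higher, by the same kind of bound. The adjusted p of 0.0326 rests on trunk and limb values below that mark, and the gene was tested only because the jaw arrays passed the filter. Under normexp background correction its difference was 0.90 (adjusted p = 0.0526).

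Col4a6, the neighbour of Col4a5 on the X chromosome and its partner in a type IV network, gave an answer that depended on the probe. The brightest probe, at chrX:136413257-136413316, had -1.20 and -2.61 in the maxilla and mandible, against -2.53 in the ilium and -2.40 in the femur. Its groups overlapped (0.55 ± 0.55, adjusted p = 0.524). The probe at chrX:136411815-136411874 had -1.39 in the maxilla and -0.33 in the mandible, against -4.56 in the ilium, and was not well above background in the femur. Tested as its own feature, it gave a difference of 4.57 ± 0.75 (adjusted p = 0.0424). The probe at chrX:136412641-136412700 had -5.25 and -4.23 in the maxilla and mandible, with neither of the other bones well above background, so the jaw bones were at least 3.38-fold higher there. That probe, like Col4a5, passed the filter only through the jaw arrays. At the probe at chrX:136411815-136411874 each jaw bone was above each of the other bones. The same order at the dimmer probe and at Col4a5 is no support for the direction, given how they passed the filter.

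The other type IV chains were closer between classes. Col4a1 had 1.22 in the maxilla and 2.33 in the mandible, against 1.71 in the ilium and 1.09 in the femur. The groups overlapped, and the difference was 0.38 ± 0.50 (adjusted p = 0.630). Col4a2 was likewise highest in the mandible and had a difference of 0.27 ± 0.49. Endothelium markers, whose cells rest on such membranes, had 0 of 7 called in either direction, with 0 at an unadjusted p under 0.05. Col4a3, known from the filter of the kidney, was dim, at -5.81 in the maxilla, -5.90 in the mandible and -6.07 in the femur, with the ilium not well above background (0.39 ± 0.23, adjusted p = 0.312). Col4a4 had a difference of 0.30 at its brighter probe and 1.88 at the other. Col18a1, the source of endostatin in vessel and epithelial membranes, had 1.61 and 1.63 in the maxilla and mandible, against 0.54 in the ilium and -0.18 in the femur. It met the rule of size, and the difference of 1.44 ± 0.32, or 2.72-fold, missed the test's threshold (adjusted p = 0.0703). Col15a1, a close relative of Col18a1, had a difference of 0.81 ± 0.27 (adjusted p = 0.134).

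Epithelial markers moved the same way as the called members of this class, and by more than the class as a whole. Of the 7 stratified epithelium markers, 5 could be tested and all 5 were called higher in jaw bones, where 4.52% of all genes were. Their median difference was 7.78, against 0.68 over the 10 members of the class. Krt5, Krt14, Krt17 and Trp63 were well above background in every bone, and Krt15 passed the filter only through the jaw arrays. Krt5, a keratin of basal epithelial cells, had 4.22 in the maxilla and 5.31 in the mandible, against -4.86 in the ilium and -4.47 in the femur (9.43 ± 0.46, adjusted p = 0.0326). Trp63, the factor that maintains stratified epithelium, had 0.78 and 1.92 in the maxilla and mandible, against -4.76 in the ilium and -5.14 in the femur (6.30 ± 0.48, adjusted p = 0.0326). Dsg3 and Dsc3, desmosome proteins of the same epithelia, were well above background on too few arrays to be tested. Of the 7 tooth matrix markers, 4 were called higher in jaw bones: Ambn and Amelx, well above background in every bone, and Enam and Mmp20, which passed the filter only through the jaw arrays. The part of epithelium and tooth in the basement membrane collagen differences was not tested.

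**Figure D4:**
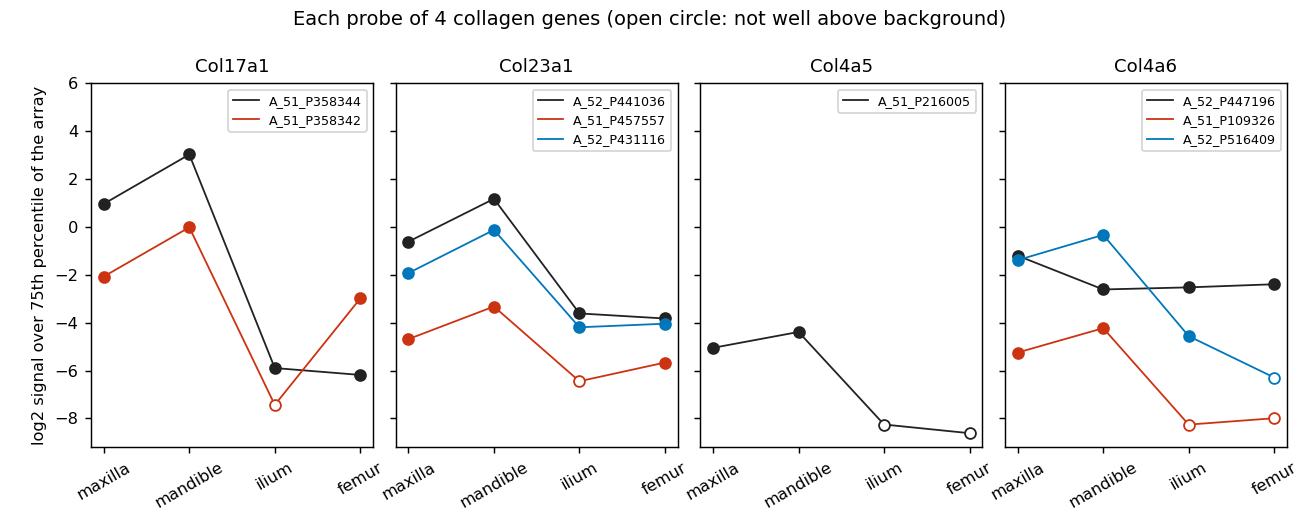
Log2 signal of each array probe of Col17a1, Col23a1, Col4a5 and Col4a6 in the 4 bones (points joined within a probe, 1 array per bone), labelled by the probe's array identifier, with open circles where a spot was not well above background. Each Col23a1 probe is higher in both jaw bones than in the other bones, the second Col17a1 probe is higher in the femur than in the ilium, and the brightest Col4a6 probe is nearly level across the mandible, ilium and femur.

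Among the remaining 15 chains, a cell-surface collagen and a short network-forming chain were called. The 2 calls are 13.3% of these chains, where 4.52% of all genes were called higher. The median difference of the 15 was 0.54, with 14 of them above 0, where 48.8% of all genes were above 0. Col23a1, a transmembrane collagen found in epithelial tissues, had -0.62 in the maxilla and 1.17 in the mandible, against -3.61 in the ilium and -3.83 in the femur. Both jaw bones were above both other bones, and the difference was 4.00 ± 0.68, or 16.0-fold (adjusted p = 0.0474, limma). This probe lies at chr11:51426806-51426865 on build mm8. Its other probes gave differences of 3.09 and 2.05, which did not pass when every probe was tested. Col8a2, a network-forming chain known from the membrane under the corneal endothelium, had 2.00 in the maxilla and 1.97 in the mandible, against 0.61 in the ilium and -0.03 in the femur. The jaw bones were nearly equal, and the difference was 1.69 ± 0.30, or 3.24-fold (adjusted p = 0.0494). Its usual partner Col8a1 was not called, with a difference of -0.21 ± 0.36 (adjusted p = 0.719).

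Col16a1, a chain associated with fibrils, had 4.68 in the maxilla and 4.41 in the mandible, against 3.33 in the ilium and 2.78 in the femur. It met the rule of size and missed the test's threshold (1.49 ± 0.29, adjusted p = 0.0568), which it passed among genes well above background on all 4 arrays (adjusted p = 0.0478). Chains that coat type I fibrils were not called. Col12a1 had 1.73 and 2.02 in the maxilla and mandible, against 1.97 in the ilium and 1.37 in the femur (0.21 ± 0.31, adjusted p = 0.667). Col14a1 had -0.02 and 0.88 in the maxilla and mandible, against 0.05 in the ilium and -0.09 in the femur (0.45 ± 0.38, adjusted p = 0.460). In both the groups overlapped. Col6a1, a chain of the beaded microfibrils around cells, had 1.43 and 2.40 in the maxilla and mandible, against 1.69 in the ilium and 1.13 in the femur (0.50 ± 0.45, adjusted p = 0.484). Its partners Col6a2 and Col6a3 had differences of 0.54 and 0.90. Col22a1, a chain of muscle and tendon junctions, had 3.45 and 4.09 in the maxilla and mandible, against 3.72 in the ilium and 2.86 in the femur (0.48 ± 0.43, adjusted p = 0.483). Differences of the other members, Col13a1, Col19a1, Col20a1, Col25a1 and Col28a1, ran from 0.22 to 0.93, and 0 of them were called.

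Several probes measured most genes, and those of a gene did not disagree in direction. Of the 25 collagen genes with at least 2 probes measured, all 25 had 1 sign of the class difference at every probe, and the probes of 20 differed by less than 1. The widest spreads were 4.01 for Col4a6, 3.86 for Col17a1 and 1.95 for Col23a1. With every probe tested as its own feature, 72 collagen probes were tested and 8 were called higher, from 7 genes, with 0 called lower. Over all probes 4.93% were called higher and 7.89% lower. These genes were those called before together with Col3a1 and Col4a6. The Col4a5 probe and the Col4a6 probe at chrX:136412641-136412700 passed the filter only through the jaw arrays. Their calls are no support for the direction. Under current gene names, 4 further probes with older names in the files belong to collagens, in a fit that called 4.51% of all genes higher and 7.25% lower. Of these Col6a4 was called higher (2.21 ± 0.25, adjusted p = 0.0325) and Col6a6 lower (-2.47 ± 0.36, adjusted p = 0.0383), while Col26a1 was not called (3.51 ± 1.19, adjusted p = 0.138). Col6a6 had -7.01 in the maxilla and -6.24 in the mandible, against -4.30 in the ilium and -4.01 in the femur. The lowest signals well above background on the maxilla and mandible arrays were -6.02 and -6.40. Its call therefore rests on jaw values below or near that mark and is no support for the direction.

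Genes that make, process and crosslink collagen leaned the same way as the collagens. Of 28 tested in a list of 30, 2 were called higher in jaw bones and 0 lower, where 4.52% of all genes were called higher and 7.22% lower. At an unadjusted p under 0.05 there were 8, a smaller share than the 34.3% of all genes. The median difference was 1.05, with 24 of 28 above 0, where 48.8% of all genes were above 0. Loxl2, which crosslinks collagen and is active on type IV networks, had 4.46 in the maxilla and 4.48 in the mandible, against 2.57 in the ilium and 2.94 in the femur (1.72 ± 0.23, adjusted p = 0.0364). P4ha3, a catalytic chain of the enzyme that hydroxylates collagen prolines, had -4.89 and -5.08 in the maxilla and mandible, against -6.22 in the ilium, and was not well above background in the femur (1.35 ± 0.22, adjusted p = 0.0439). Larger differences that did not pass were those of Plod2, which hydroxylates lysines for crosslinks, at 1.95 ± 0.81, and P4ha2 at 1.82 ± 0.79. In both the mandible was the brightest bone, with 3.46 for Plod2 and 4.47 for P4ha2, and the maxilla had 1.37 and 2.51. The lowest differences were -0.44 for Plod3, -0.40 for Plod1 and -0.31 for Glt25d1, none of them called. The ilium was above the femur for 26 of these 28 genes, where 42.3% of all genes had that order.

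Collagen receptors held calls in both directions. Of 11 tested, 1 was called higher in jaw bones and 2 lower, where 4.52% of all genes were called higher and 7.22% lower. Ddr1, a collagen receptor kinase of epithelia, had 2.57 in the maxilla and 1.56 in the mandible, against -0.53 in the ilium and -0.60 in the femur (2.63 ± 0.41, adjusted p = 0.0427). Gp6, the collagen receptor of platelets, had -1.90 and -1.32 in the maxilla and mandible, against 0.89 in the ilium and 1.38 in the femur (-2.74 ± 0.33, adjusted p = 0.0338). Lair1, an inhibitory receptor of leukocytes, had -0.57 in both jaw bones, against 0.93 in the ilium and 1.19 in the femur (-1.63 ± 0.21, adjusted p = 0.0345). Mrc2, which takes up collagen in mesenchymal cells, and Ddr2, the receptor kinase of the same cells, had differences of 1.51 and 1.46 that were not called. Gpr56, a receptor for type III collagen, had -1.38 ± 0.32 (adjusted p = 0.0727). All 6 erythroid markers were called lower in jaw bones, with a median of -3.42, and the part of marrow cells in the receptor differences was not tested.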

How the data were processed

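Total RNA of 4 bones was labelled with cyanine 3 and hybridised to 1-colour Agilent whole mouse genome arrays, 1 per bone, per the labels. The submitters' processing notes name Agilent Feature Extraction 9.5.3.1 as the source of the deposited intensity values, with background subtracted and spatial trend removed, per the file headers. The deposited series table holds log2 values, which matched the log2 ratio of each array to the ilium array plus a constant (femur -0.096, maxilla 0.0955, mandible -0.122), within 0.001 for at least 99.6% of 41174 probes. Its column medians were 0.0233, -0.218 and -0.133 in that order, and the sources used here do not say how the constants arose. Positions of probes are on mm8, per the file headers, and no annotation of that build was used.

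Signals were log2-transformed and scaled to each array's 75th percentile. Outlier spots were left out, the remaining spots of a probe averaged (median SD between spots 0.0611 to 0.0832), and each gene was read from its brightest probe under the file's name. Jaw bones were set against trunk and limb bones with limma 3.58.1 in R 4.3.3 (lmFit, eBayes, Benjamini-Hochberg over 20709 genes, threshold 0.05), with a prior SD of 0.275 and with 2 residual and 1.76 prior degrees of freedom. The smallest adjusted p was 0.0326. Bones stand in for replicates, so p-values measure the spread between bones. Bones of a class were compared by size alone. The code was tested on simulated data.

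The members and lists were chosen with earlier results of these data known. Per-bone values are given for members that passed limma or the rule of size, that differed 4-fold within a class of bones, or that define a collagen class. Pathway genes are named where called or among the 3 largest differences on each side, and marker genes are given mainly as counts and sums. All arrays lay on 1 slide, where position and bone cannot be told apart. Alternatives were quantile, median and series-table scaling, normexp with an offset of 50, filters on dim genes, other probe, outlier and name rules, and leaving out each bone. RefSeq names and promoters on GRCm38.p6 were used, and no promoter window was held for Col1a1, Col2a1, Col4a3, Col5a2, Col9a3, Col12a1, Col14a1 and Col22a1.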

Additional observations from a re-analysis of the deposited data

How the results depend on the processing

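No paired analysis was possible because each bone had 1 array. Over 15 alternatives, 130 of 151 values of counts and medians kept their direction and size or side of the threshold. The 5 collagen genes called higher became 3 under median centring, 2 under the deposited series table, 2 with no filter on dim genes, 3 with the mean of all probes of a gene and 8 probes with every probe its own feature. Over all genes these settings called 609, 581, 365, 803 and 1534 higher in that order. With 1 bone left out the count ran from 0 to 10, and the lone bone is then assumed to vary like the other class. The smallest adjusted p over all genes was 0.235 without the ilium and 0.356 without the femur. The count called lower was 0 except under refreshed gene names (1, Col6a6) and with 1 bone left out (0 to 1). Over its alternatives Col17a1 was called in 10 of 13, Col7a1 in 9 of 13, Col4a5 in 9 of 12, and Col8a2 and Col23a1 in 6 of 13 each, with adjusted p up to 0.356 for Col17a1 and 0.377 for Col8a2. The difference of each of these 5 stayed above 0 in all of them.

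Median differences between classes, with 1 bone left out, ran from 0.41 to 0.98 for all collagen genes, 0.33 to 0.99 for fibrillar, -0.25 to 1.39 for cartilage, 0.61 to 0.99 for basement membrane and 0.38 to 0.99 for other chains. Under median centring and the series table these medians were lower, at 0.31 and 0.30 for all collagen genes, 0.40 and 0.40 for fibrillar, 0.074 and 0.072 for cartilage, 0.43 and 0.43 for basement membrane and 0.29 and 0.29 for other chains, with the all-gene median at -0.28 in both. The basement membrane median was 1.26 with the mean of all probes. The maxilla minus mandible median over all collagen genes was -0.70 under the series table, and over cartilage chains it was -2.12 under the series table, -0.95 under normexp and -1.28 with the mean of all probes. The ilium minus femur median of cartilage chains was 2.84 under normexp. Counts at 4-fold became 0 for maxilla over mandible under normexp, and 3 for mandible over maxilla and 1 for femur over ilium with the mean of all probes.

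Single differences changed sign only where none was called. Under median centring Col1a1 was -0.033 and Col12a1 -0.045, and under the series table they were -0.018 and -0.047. With 1 bone left out, Col1a1 ran from -0.013 (without the maxilla) to 0.45, Col12a1 from -0.091 (without the femur) to 0.50 and Col4a1 from -0.18 (without the mandible) to 0.93. Col2a1 ran from -2.03 to 1.18 (without the ilium). Col9a1 was 0.60 without the maxilla and 2.11 without the ilium, with a low of -2.75. Col9a3 was -0.068 without the mandible and -0.25 without the femur, with a high of 3.45. Col10a1 was 0.16 without the mandible and 1.11 without the ilium, with a low of -3.62. Col11a2 was -0.73 without the mandible and -0.0067 without the femur, with a high of 1.39. These cartilage values follow from which bone was left out, and the cause of the other changes was not tested. Of 322 values of single genes under alternatives, 273 kept direction and side of the threshold. Signal over background limits Col4a5, Col10a1, Col4a3 and Col28a1, each not well above background in at least 1 bone. The brightest Col17a1 probe was close to that limit in the ilium and femur.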
